A study of Mus musculus with 6 samples.

Results

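The cytosolic ribosomal protein genes are the protein-coding genes for the protein subunits of the cytoplasmic ribosome. They were taken by their GENCODE symbols (Rps and Rpl followed by a number, with Rpsa, Rplp0, Rplp1, Rplp2 and Fau), which gave 85 of the 55416 genes in the count table. Of these, 32 encode proteins of the small subunit, 46 proteins of the large subunit, and 7 are paralogs of another member (Rpl3l, Rpl7l1, Rpl10l, Rpl22l1, Rpl39l, Rps4l and Rps27l). Rpl36al, whose symbol has another form, was not taken.

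RNA-seq was performed on EpiLCs, the formative cells reached 48 h after mESCs leave the naïve state, in 3 WT and 3 Oct6 KO libraries. WT cells were the 46C line, which carries GFP under the control of the Sox1 gene, a neural marker. The KO line was a single clone of 46C with a homozygous insertion, made with CRISPR/Cas9, near the start of the coding sequence of Oct6 (official symbol Pou3f1), so that genotype and clone cannot be told apart. Both groups were differentiated in N2B27 medium with KSR, bFGF and Activin A on fibronectin, and the replicates were described as paired. Libraries were made from total RNA after removal of ribosomal RNA.

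Library totals ran from 10995505 to 14680930 counts. The Oct6 transcript (Pou3f1) was at 122 to 161 CPM in WT and at 127 to 141 CPM in KO, where CPM is the count scaled to the TMM-normalized library size. The counts do not read the insertion, so this level does not check the genotype. The 6 EpiLC markers (Pou5f1, Sox2, Fgf5, Otx2, Dnmt3b, Pou3f1) summed to between 2690 and 2990 CPM in WT and between 2630 and 2790 CPM in KO. Within this sum Otx2 (83.4 to 157 CPM in the mean), Fgf5 (69.5 to 109 CPM) and Sox2 (123 to 165 CPM) rose, with adjusted p of 1.7e-04, 3.8e-04 and 0.0283, while Dnmt3b (1560 to 1370 CPM) and Pou5f1 (898 to 787 CPM) did not pass the test. Markers of primitive endoderm (4 genes) summed to 4.06 to 4.78 CPM in WT and 4.63 to 12.6 CPM in KO, and those of mesoderm and streak (4 genes) to 5.88 to 6.49 and 8.79 to 11.7 CPM. Most of the latter was Eomes (5.43 to 9.94 CPM in the mean), and T, Mixl1 and Mesp1 each had a mean of at most 0.37 CPM in either group. The 2 neural markers summed to 3.99 to 4.63 CPM in WT and to 1.05 to 2.62 CPM in KO, and the 3 trophoblast markers stayed at or below 0.97 CPM. Their part in the results on ribosomal proteins was not tested.

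A ribosome holds a single copy of nearly every ribosomal protein, and cells make the proteins of both subunits in matched amounts. Their mRNAs are short, abundant, and in vertebrates begin with a tract of pyrimidines at the very first base (the TOP motif), through which mTOR signalling controls their translation. Naïve and formative cells both divide quickly and carry a high load of ribosome production. A few members have a second gene, often a copy of an X-linked one, whose protein can take the same place in the ribosome. Rpl39l and Rpl10l, copies of the X-linked Rpl39 and Rpl10, are best known from male germ cells.

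The start regions of 6 members are shown because the pyrimidine tract is the sequence feature these genes are known to share. Each line gives 15 bases before and 15 bases from the annotated start in RefSeq (GRCm38.p6), with the longest run of C and T in capitals. They lie at chr4:86857353-86857382 (minus strand), chr3:90213634-90213663 (minus), chr16:33056467-33056496 (plus), chr3:28805493-28805522 (plus), chr16:10170213-10170242 (plus) and chr12:66284387-66284416 (minus), in the order printed.
Rps6: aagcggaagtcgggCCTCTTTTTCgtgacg
Rps27: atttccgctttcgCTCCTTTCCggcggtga
Rpl35a: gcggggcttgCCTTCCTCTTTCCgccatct
Rpl22l1: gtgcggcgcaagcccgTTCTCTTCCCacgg
Rpl39l: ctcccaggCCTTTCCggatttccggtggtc
Rpl10l: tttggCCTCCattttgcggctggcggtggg
The run was 10 bases long in Rps6 and 13 in Rpl35a, and it was 7 in Rpl39l and 5 in Rpl10l. In the counterparts Rpl39 and Rpl10, which are not printed, it was 8 and 3. The runs of Rpl39l and Rpl10l end before the annotated start.

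A run of at least 8 pyrimidines within these 30 bases was found on the coding strand in 28 of the 64 members with a RefSeq entry, or 43.8%. Among all 27025 genes of the table it was found in 13.9%. On the other strand the shares were 4.69% of members (3 genes) and 15.3% of all genes. The longest run had a median of 7 bases in members and 5 in all genes, and the largest was 21 bases, in Rpl7a. The 28 tested members with such a run had a median log2 fold change (KO over WT) of 0.05, and the 35 with a shorter run 0.04. A match here describes the letters at an annotated start and does not place the start used in these cells.

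**Figure D1:**
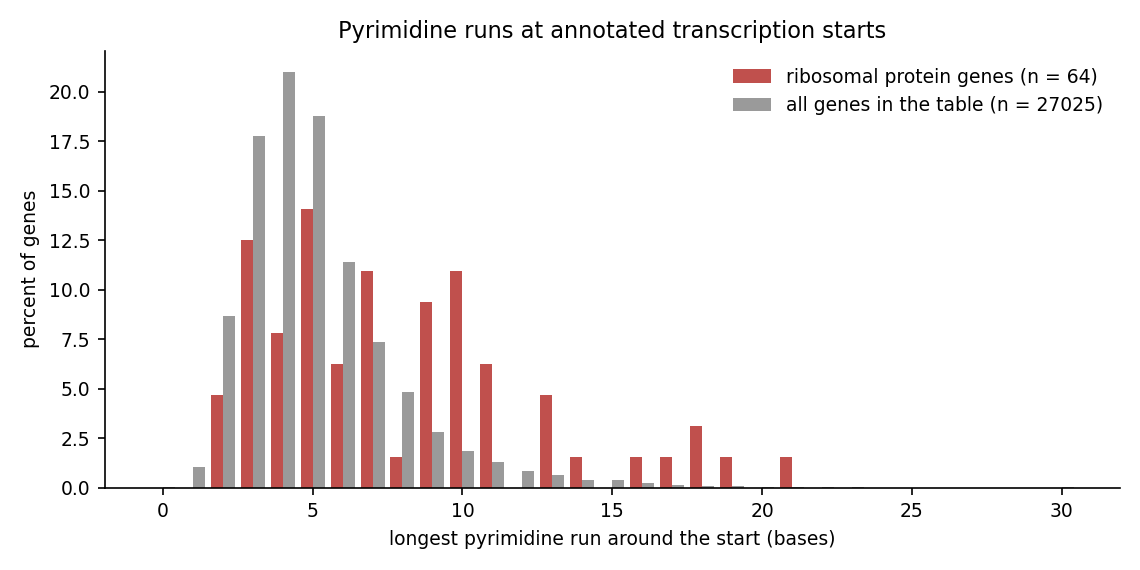
Percent of genes (y axis) by the length in bases of the longest run of C and T in the 30 bases around the annotated start (x axis), for 64 ribosomal protein genes (red) and 27025 genes in the RefSeq table (grey). Runs of at least 8 bases make up 43.8% of the red and 13.9% of the grey distribution.

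Transcripts of the members took 6.73%, 7.28% and 6.55% of all counts in WT replicates 1 to 3 and 6.65%, 7.34% and 6.72% in KO replicates 1 to 3. The means were 6.86% ± 0.38 in WT and 6.91% ± 0.38 in KO (SD, n = 3), a difference of 0.0507 percentage points that is smaller than the spread within either group. It ran from −0.166 (without KO replicate 2) to 0.265 (without WT replicate 2) when 1 library was left out. The library labelled replicate 2 was the highest in each group, and both ends of this range keep 1 of these 2 libraries without the other. The SD within a group does not take the pairing of the replicates into account. In WT replicate 2, 77 of the 84 tested members lay above their group mean, and in KO replicate 2, 81 did. Small subunit genes took 2.97% ± 0.18 of the counts in WT and 2.97% ± 0.17 in KO, and large subunit genes took 3.73% ± 0.19 and 3.79% ± 0.21 (SD, n = 3).

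The ratio of small to large subunit counts was 0.798, 0.805 and 0.787 in WT and 0.783, 0.785 and 0.783 in KO. All 3 KO values lay below all 3 WT values, and the group means differed by 0.013. In bulk RNA, fewer cells of a type and less RNA per cell cannot be told apart. Rows named as ribosomal protein pseudogenes (322 rows) added 0.275% ± 0.0157 of the counts in WT and 0.272% ± 0.0155 in KO.

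**Figure D2:**
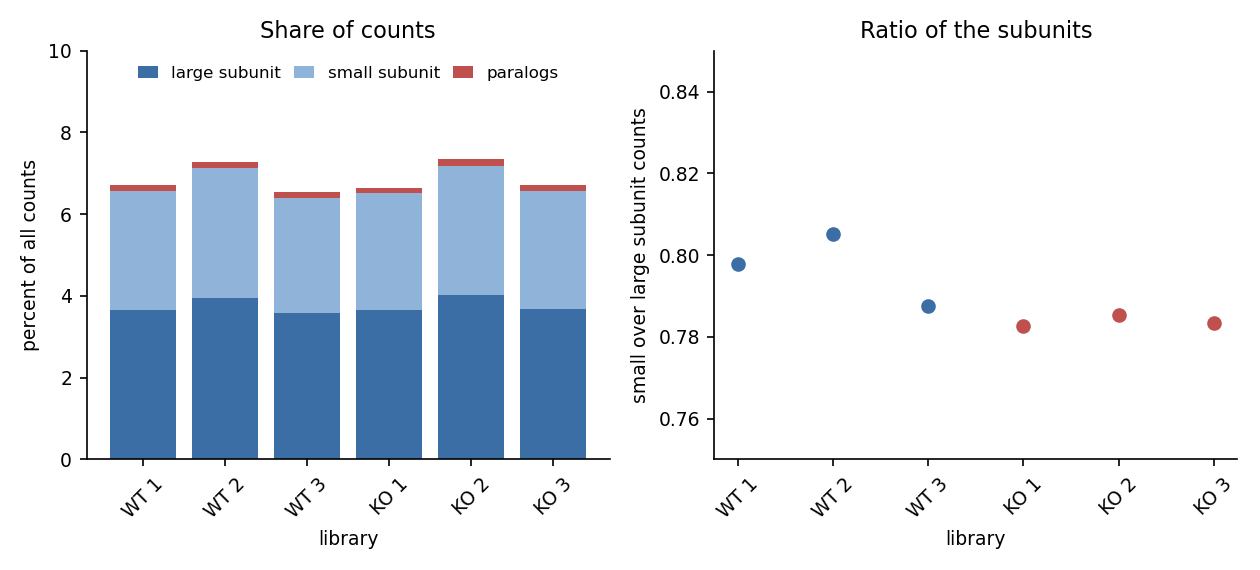
Left, percent of all counts on large subunit, small subunit and paralog genes in each of the 6 libraries (stacked bars); right, the ratio of small to large subunit counts per library, on an axis that does not start at 0. The stacks reach 6.55% to 7.34%, highest in replicate 2 of each group, and the 3 KO ratios lie below the 3 WT ratios.

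The members varied widely in level. Per kb of coding sequence, the 78 genes of the small and large subunits had a median of 1574 CPM in WT, with quartiles of 1160 and 2145 CPM, and 62 of them lay between 1000 and 4000 CPM per coding kb. The 5 members with the most counts were Rpsa, which encodes a small subunit protein also described as a laminin receptor (2654 CPM in WT), Rpl4 (2498 CPM) and Rpl8 (2233 CPM) of the large subunit core, Rps3, which lies where mRNA enters the ribosome (2199 CPM), and Rpl7 (1998 CPM). None of these 5 passed the test, with log2 fold changes from −0.02 (Rpsa) to 0.07 (Rps3). The highest value per coding kb was that of Rpl41, at 14740 CPM, whose coding sequence of 78 bases is shorter than a read, so that this value rests on reads that reach into the untranslated ends.

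At the low end, Rpl24 (3.96 CPM in WT), Rps10 (21.9 CPM) and Rpl29 (36.5 CPM) were the only subunit genes under 100 CPM per coding kb. An annotated gene on the same strand covers 82.9% of the coding exons of Rpl24 (Gm28037) and 91.6% of those of Rps10 (Gm49804), and both of those genes had 0 counts in all 6 libraries. The same holds for Rpl13a, with 97.6% covered by Gm45713, at 130 CPM in WT. The part of these overlaps in the low counts was not tested, and the levels of these genes are uncertain. Rpl29 had no such overlap, and 70.6% of its windows had a copy elsewhere.

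Retrocopies of ribosomal protein genes are numerous in the mouse genome, and a read that matches a copy as well as the gene may be lost or shared in counting. Of the windows of 100 bases (the read length) that touch the coding sequence, a median of 58.1% per member had an exact copy elsewhere in GRCm39. The share was over 50% in 48 of 85 members and over 80% in 18, and it was highest in Rps12 (96.0%), while Rps2 and Rpl21 each had copies at 39 loci. It was 0 in 6 members, among them Rpl39l, and 5.22% in Rpl10l, 1.58% in Rps4l and 59.6% in Rpl35a. Levels of members with many copied windows are uncertain, since the treatment of reads with several matches is not given in the sources used here.

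The comparison of KO with WT asks which of these genes differ in the absence of Oct6. With an adjusted p below 0.1 (edgeR's quasi-likelihood test, adjusted over all 15746 genes tested), 4 of the 84 tested members changed, or 4.76%, beside 24.3% of all genes. Of these, 3 rose (Rpl39l, Rpl10l, Rpl35a; 11.8% of all genes rose) and 1 fell (Rps4l; 12.5% of all genes fell). At an adjusted p below 0.05 the members called were also 4, beside 19.0% of all genes. Only Rpl39l and Rpl10l also reached an absolute log2 fold change of 1, which 6.21% of all genes did. Among genes outside the family with a mean of at least 100 CPM, a comparison chosen after the values were seen, 23.5% of 2297 genes were called. This limit was not applied to the members. Among those called, Rpl39l (21.0 CPM in WT, 81.5 CPM in KO) and Rpl10l (54.4 and 131.5 CPM) had a mean over both groups below it. Rpl3l, a muscle paralog of Rpl3, did not pass the filter on low counts, with 3, 15 and 8 counts in WT and 6, 9 and 4 in KO.

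With the replicate number as a block, 12 members were called in place of 4, beside 30.3% of all genes. Among the added genes were Rpl13a, Rpl22l1, Rpl24, Rps10 and Rps21, with higher values in KO, and Rps2 and Rps20, with lower values. Without WT replicate 2 there were 8 calls, with Rpl13a, Rpl24, Rps10 and Rps16 added. Rpl39l, Rpl10l, Rpl35a and Rps4l were called with the block and in each of the 13 alternatives. The largest log2 fold change with the block among the added genes was 0.56 (Rpl24).

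**Figure D3:**
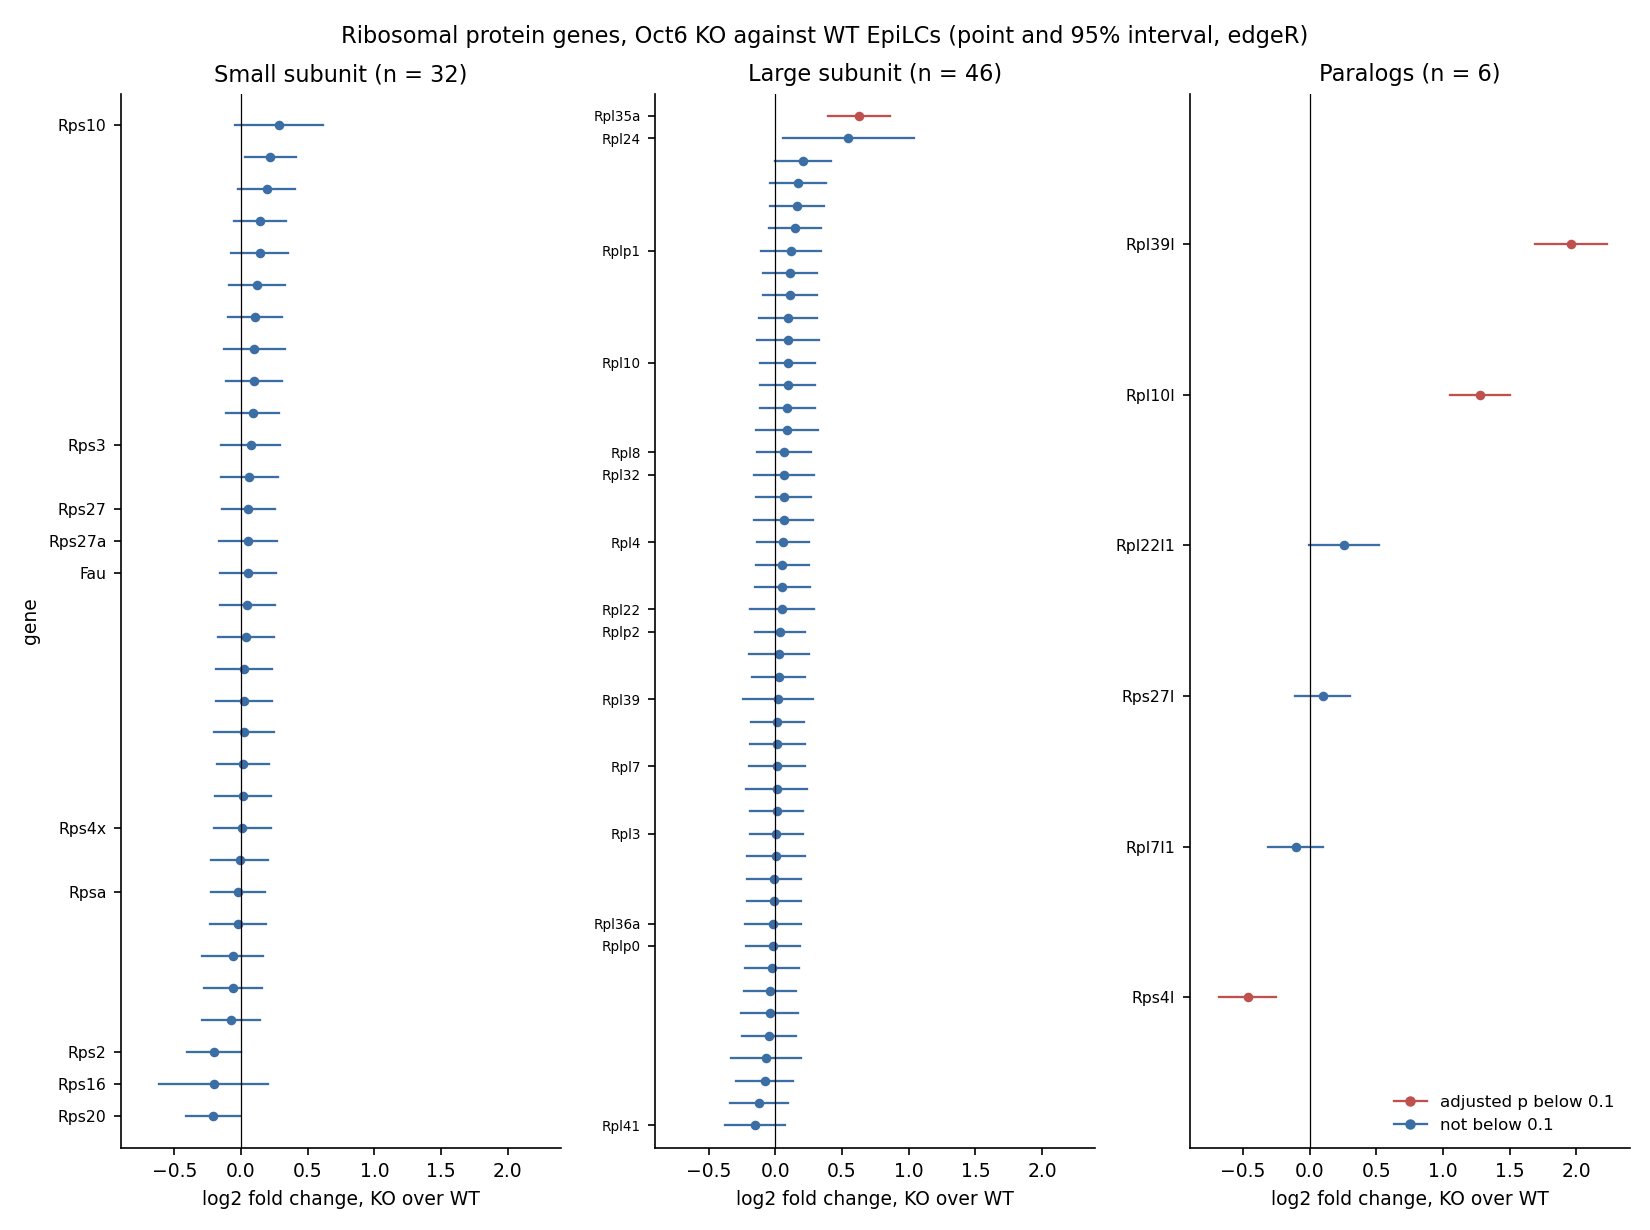
Log2 fold change of KO over WT (x axis) with its 95% interval for each of the 84 tested members, sorted within the small subunit, the large subunit and the paralogs, with labels for genes chosen by the naming rule, red where the adjusted p is below 0.1. The red genes are Rpl35a, Rpl39l, Rpl10l and Rps4l, and all small subunit genes are blue, between −0.21 and 0.29.

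The genes of the subunits themselves moved little. Of 78, 1 was called (Rpl35a, 1.28%). Of the 75 outside chromosomes 6 and 16, 0 were called by edgeR with TMM, all libraries and no block. In that fit 2 were at an unadjusted p below 0.05. With DESeq2, 1 subunit gene outside these chromosomes was called (Rps21), with library totals alone 2 (Rps2 and Rps20), and with the block 6. Without WT replicate 2, Rpl13a, Rps10 and Rps16 were called. Chromosomes 6 and 16 are set apart because the median log2 fold change was −0.40 over 771 genes tested on chromosome 6 and 0.55 over 468 on chromosome 16, apart from the members. The SD of the log2 fold changes was 0.13 over the 78 subunit genes and 0.53 over all genes. Their median was 0.04, and over all genes it was 0.00 (0.0014). In the 3 pairs of equal replicate number the median over the 84 tested members was 0.04, 0.06 and 0.04. In the edgeR fit without a block, the median over the tested members was 0.05. That value turned to −0.02 without KO replicate 2, a fit in which WT replicate 2 stayed in without its pair.

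Among the 77 subunit genes that were not called, 57 had a log2 fold change within 0.1 of 0 and 71 within 0.2. For 74 of them the 95% interval lay within 0.5 on either side of 0, the exceptions being Rpl24, Rps10 and Rps16. In CPM the groups did not overlap in 9 of 84 members, or 10.7%, beside 33.7% of all genes. All 3 pairs were higher in KO in 32 members and lower in 4, where the shares over all genes were 25.9% and 26.2%.

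In the small subunit the largest value was that of Rps10, a protein of the mRNA entry side, at 20.2, 26.5 and 18.9 CPM in WT and 23.6, 32.3 and 23.8 CPM in KO (log2 fold change 0.29, SE 0.16, adjusted p = 0.237). The groups overlapped. Rps21 was at 523, 556 and 547 CPM in WT and 624, 655 and 614 CPM in KO (log2 fold change 0.22, SE 0.09, adjusted p = 0.106), without overlap. At the other end, Rps20 was at 1016, 1171 and 1087 CPM in WT and 888, 988 and 957 CPM in KO (log2 fold change −0.21, SE 0.10, adjusted p = 0.145). These groups did not overlap either, and neither gene passed the threshold in the edgeR fit with TMM and no block. Rps2 was at 1677, 1814 and 1577 CPM in WT and 1373, 1584 and 1457 CPM in KO (log2 fold change −0.20, SE 0.10, adjusted p = 0.176).

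Rps16 had the widest spread of the small subunit, at 348, 152 and 212 CPM in WT and 226, 226 and 167 CPM in KO (log2 fold change −0.20, SE 0.20, adjusted p = 0.536). Its sign turned when WT replicate 1 was left out (0.18), and without WT replicate 2 it was called lower (−0.45). Fau and Rps27a, made as fusions with a ubiquitin-like protein and with ubiquitin, had log2 fold changes of 0.05 (SE 0.10) and 0.05 (SE 0.10), with adjusted p = 0.79 and 0.778. Rps6, the small subunit protein phosphorylated downstream of mTOR, was at 694, 722 and 598 CPM in WT and 635, 714 and 630 CPM in KO. Its log2 fold change was −0.03 (SE 0.10).

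In the large subunit Rpl35a rose. The human gene is one of those mutated in Diamond-Blackfan anaemia. Rpl35a (chr16:32876630-32880559, plus strand, GRCm39) was at 389, 444 and 418 CPM in WT and 580, 763 and 587 CPM in KO. Every KO library lay above every WT library, with a log2 fold change of 0.62 (SE 0.11, 1.54-fold, adjusted p = 5.1e-04). The 83 genes tested within 5 Mb had a median of 0.58, and 35 of them lay above Rpl35a. Lrch3 and Lmln, the nearest protein-coding genes tested that do not overlap it, had 0.22 (SE 0.13) and 0.18 (SE 0.17). Neither was called. Iqcg, centred 23.7 kb away, had 0.69 (adjusted p = 0.0021).

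Rpl24, which forms a bridge to the small subunit and also lies on chromosome 16 (chr16:55786638-55791798), was at 3.28, 5.02 and 3.59 CPM in WT and 5.75, 5.55 and 5.94 CPM in KO. The groups did not overlap, the log2 fold change was 0.55 (SE 0.23), and the adjusted p of 0.117 missed the threshold. The 28 genes tested within 5 Mb had a median of 0.65. Rpl32, on chromosome 6 (chr6:115782442-115785785, minus strand), was at 1401, 1747 and 1467 CPM in WT and 1484, 1805 and 1536 CPM in KO (log2 fold change 0.06, SE 0.11, adjusted p = 0.746). The 84 genes tested around it had a median of −0.04, unlike the chromosome as a whole. How far the shifts of chromosomes 6 and 16 carry the values of these members was not tested.

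The stalk proteins, which bind the elongation factors, had log2 fold changes of −0.02 (Rplp0, SE 0.10), 0.12 (Rplp1, SE 0.11) and 0.03 (Rplp2, SE 0.09), with adjusted p from 0.522 to 0.928. Rpl41, the shortest ribosomal protein, had the lowest value of the large subunit, at 1275, 1182 and 993 CPM in WT and 949, 1144 and 1016 CPM in KO (log2 fold change −0.15, SE 0.11, adjusted p = 0.383). Rpl13a had 125, 143 and 123 CPM in WT and 148, 162 and 142 CPM in KO (log2 fold change 0.21, SE 0.10, adjusted p = 0.169).

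The paralogs held 3 of the 4 calls. These were 3 of the 6 paralogs tested, beside 24.3% of all genes. Rpl39l and Rps4l lie on the shifted chromosomes 16 and 6, and Rpl10l lies on chromosome 12. Rpl39l (chr16:9949671-9992780, plus strand, GRCm39) is an autosomal copy of Rpl39 (chrX:36345092-36349130, minus strand), whose small protein lines the tunnel through which the new peptide leaves. Their coding sequences, from the GENCODE transcripts, are printed because the finding depends on telling both apart, with the bases that differ in capitals.
Rpl39l: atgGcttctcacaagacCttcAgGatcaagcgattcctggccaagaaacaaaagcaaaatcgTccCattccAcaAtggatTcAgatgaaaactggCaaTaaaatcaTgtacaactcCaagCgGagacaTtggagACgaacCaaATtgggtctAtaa
Rpl39: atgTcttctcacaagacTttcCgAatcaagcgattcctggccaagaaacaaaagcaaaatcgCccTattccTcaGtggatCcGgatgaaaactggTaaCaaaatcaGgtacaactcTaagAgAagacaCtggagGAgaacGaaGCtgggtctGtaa
They differ at 23 of 156 bases, 48 of 51 residues are identical, and the longest stretch without a difference is 38 bases. No window of 100 bases is shared between both transcripts.

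Rpl39l was at 18.0, 22.7 and 22.3 CPM in WT and 74.7, 74.5 and 95.3 CPM in KO. All KO libraries stood well above all WT libraries, with a log2 fold change of 1.96 (SE 0.13, 3.89-fold, adjusted p = 1.2e-08), from 1.83 to 2.02 over the 13 alternatives. Rpl39 was at 281, 410 and 334 CPM in WT and 303, 398 and 339 CPM in KO, and the groups overlapped (log2 fold change 0.02, SE 0.13, adjusted p = 0.941). Per kb of coding sequence, Rpl39l made up 5.84% ± 0.52 of the sum of both genes in WT and 19.2% ± 3.1 in KO (SD, n = 3). The 54 genes tested within 5 Mb of Rpl39l had a median log2 fold change of 0.59, and 2 of them lay above it. One of these is Grin2a, a glutamate receptor gene 136 kb away (log2 fold change 2.32, SE 0.41, adjusted p = 5.1e-04). The other is the long noncoding Gm49455, on the other side, at a mean of 0.274 CPM in WT and 1.06 CPM in KO (1.99, SE 0.59, adjusted p = 0.021). Atf7ip2, the nearest protein-coding gene tested on that side at 17.8 kb, had 0.85 (SE 0.13).

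Rpl10l (chr12:66329273-66331181, minus strand, GRCm39) is a copy of Rpl10 (chrX:73314418-73316741, plus strand), the protein whose late joining completes the large subunit. The stretch of 60 coding bases with the most differences, from base 334 to 393 of both coding sequences, is shown with the differing bases in capitals.
Rpl10l: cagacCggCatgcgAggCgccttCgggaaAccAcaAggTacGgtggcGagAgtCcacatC
Rpl10: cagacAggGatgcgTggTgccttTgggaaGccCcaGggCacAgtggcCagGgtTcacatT
Over the whole coding sequence 98 of 645 bases differ, while 211 of 214 residues are identical.

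Rpl10l was at 59.9, 56.2 and 47.1 CPM in WT and 124, 138 and 133 CPM in KO. Every KO library held more than 2 times the CPM of every WT library, with a log2 fold change of 1.27 (SE 0.11, 2.42-fold, adjusted p = 2.6e-07), from 1.18 to 1.35 over the alternatives. Rpl10 was at 723, 836 and 739 CPM in WT and 813, 883 and 756 CPM in KO (log2 fold change 0.09, SE 0.10, adjusted p = 0.577). Per kb of coding sequence, Rpl10l made up 6.65% ± 0.89 of both genes in WT and 13.9% ± 0.89 in KO. Of the windows of Rpl10, 89.5% had a copy elsewhere, so the level of this share is uncertain. Chromosome 12 had no shift like those of chromosomes 6 and 16, with a median of 0.04 over 610 genes, and the 44 genes tested within 5 Mb had a median of 0.13. The nearest protein-coding genes tested were Wdr20rt, 1050 kb away (SE 0.26, adjusted p = 4.3e-04), the single neighbour above Rpl10l, and Lrr1, 2880 kb away (0.55, SE 0.21).

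Rps4l (chr6:148256098-148257431, plus strand, GRCm39) is an autosomal copy of Rps4x (chrX:101228542-101233014, minus strand), a protein of the small subunit. The 60 coding bases with the most differences, from base 475 to 534 of both, are shown in the same way.
Rps4l: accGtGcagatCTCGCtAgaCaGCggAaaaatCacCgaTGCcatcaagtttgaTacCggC
Rps4x: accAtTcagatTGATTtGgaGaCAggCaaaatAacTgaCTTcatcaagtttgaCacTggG
Of the aligned coding bases 157 differ, and 245 residues of 262 and 263 are identical.

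Rps4l was at 620, 535 and 513 CPM in WT and 376, 432 and 400 CPM in KO. All KO libraries lay below all WT libraries, with a log2 fold change of −0.47 (SE 0.10, 0.724-fold, adjusted p = 0.0028). Rps4x was at 1399, 1729 and 1531 CPM in WT and 1551, 1687 and 1451 CPM in KO (log2 fold change 0.01, SE 0.10, adjusted p = 0.966). Per kb of coding sequence, Rps4l made up 26.6% ± 3.8 of both genes in WT and 20.6% ± 1.1 in KO. The 40 genes tested within 5 Mb, near the end of chromosome 6, had a median of −0.58, and 11 of them lay above Rps4l and 29 below it. Rps4l lies within the bounds of Tmtc1, a gene on the minus strand (−0.77, SE 0.17, adjusted p = 0.0029). Ergic2 and Ipo8, the nearest protein-coding genes tested on either side that do not overlap it, had −0.50 (SE 0.10) and −0.59 (SE 0.09).

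**Figure D4:**
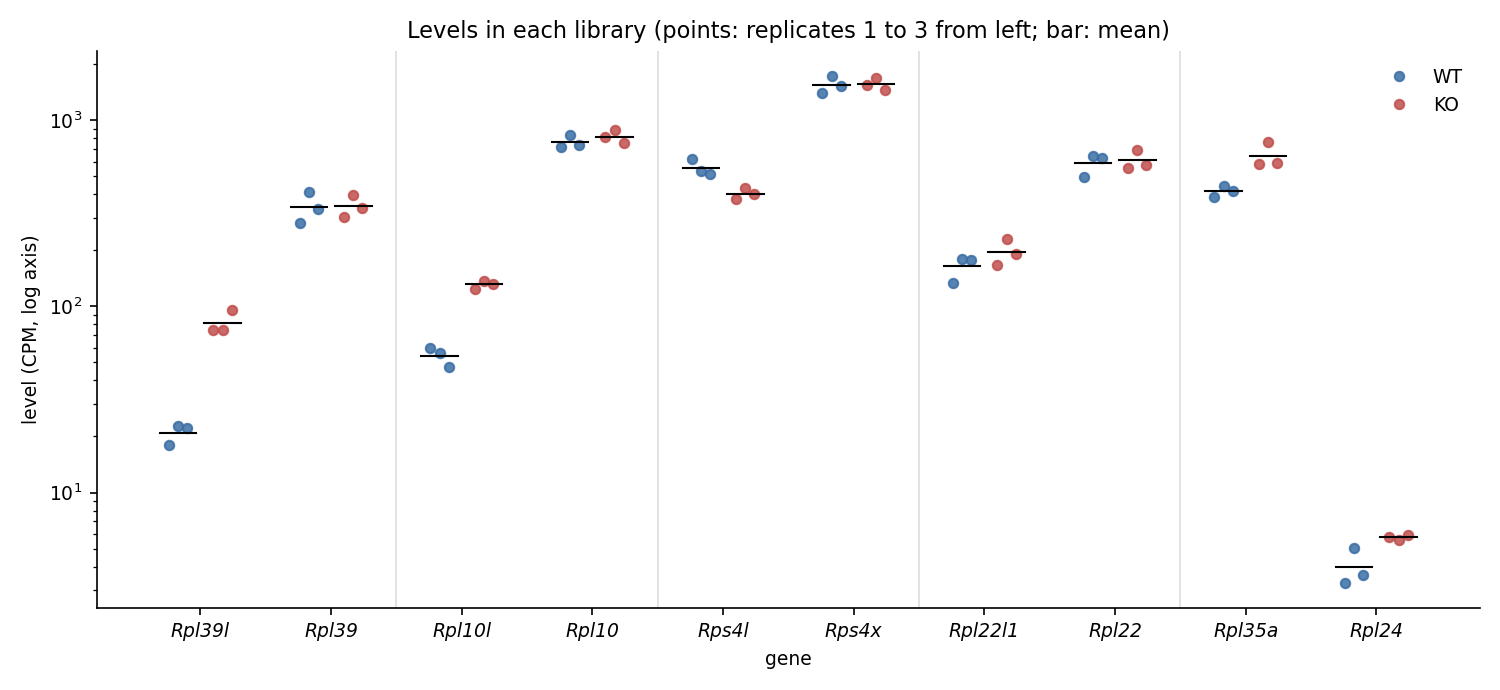
Level in CPM (y axis, log scale) of 4 paralogs beside their counterparts and of Rpl35a and Rpl24, with a point for each of 3 WT (blue) and 3 KO (red) libraries and a bar at the mean. Rpl39l lies between 18.0 and 22.7 CPM in WT and between 74.5 and 95.3 CPM in KO, while Rpl39 stays between 281 and 410 CPM.

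Of the other paralogs none passed the threshold. Rpl22l1, whose mRNA the Rpl22 protein is known to repress, was at 134, 181 and 178 CPM in WT and 168, 231 and 190 CPM in KO (log2 fold change 0.26, SE 0.13, adjusted p = 0.178). The groups overlapped, and the gene was called with the block (adjusted p = 0.0284) and without KO replicate 1. Rpl22 had a log2 fold change of 0.05 (SE 0.11). Rps27l, known as a target of the tumour suppressor Trp53, was at 348, 421 and 388 CPM in WT and 404, 441 and 393 CPM in KO (0.10, SE 0.10). Its counterpart Rps27 had 0.06 (SE 0.10), and Rps27l made up 42.0% and 42.8% of both per coding kb. Rpl7l1, which takes part in the assembly of the large subunit, had −0.10 (SE 0.10) and its counterpart Rpl7 0.01 (SE 0.10). The counterpart Rpl3 had 0.01 (SE 0.10) and Rpl36a −0.02 (SE 0.10).

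The 6 shares of a paralog in the sum with its counterpart were compared by a two-sided exact permutation test. The shares of Rpl39l, Rpl10l, Rpl22l1, Rps4l and Rpl7l1 each gave an exact permutation p = 0.1 (adjusted over 6 shares, 0.12), the smallest value that 3 against 3 libraries allow, and that of Rps27l gave p = 1.0. Rpl22l1 made up 22.6% ± 0.39 in WT and 25.2% ± 0.97 in KO, and Rpl7l1 16.02% ± 0.70 and 14.9% ± 0.36. The levels of these shares are uncertain. Counts of the whole gene were divided by its coding length alone, so reads in untranslated parts can enter unequally. For Rpl39l and Rpl39 the coding length is 156 bases in both, but the transcripts used have 821 and 1768 bases. The genes of a pair also differ in copied windows. These made up 89.5% of windows in Rpl10, 80.3% in Rps27, 45.9% in Rpl39, 44.5% in Rpl7 and 43.1% in Rps4x. The paralogs of these genes had at most 5.22%. In the other direction, Rpl22l1 had 40.6% and Rpl22 0.

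**Figure D5:**
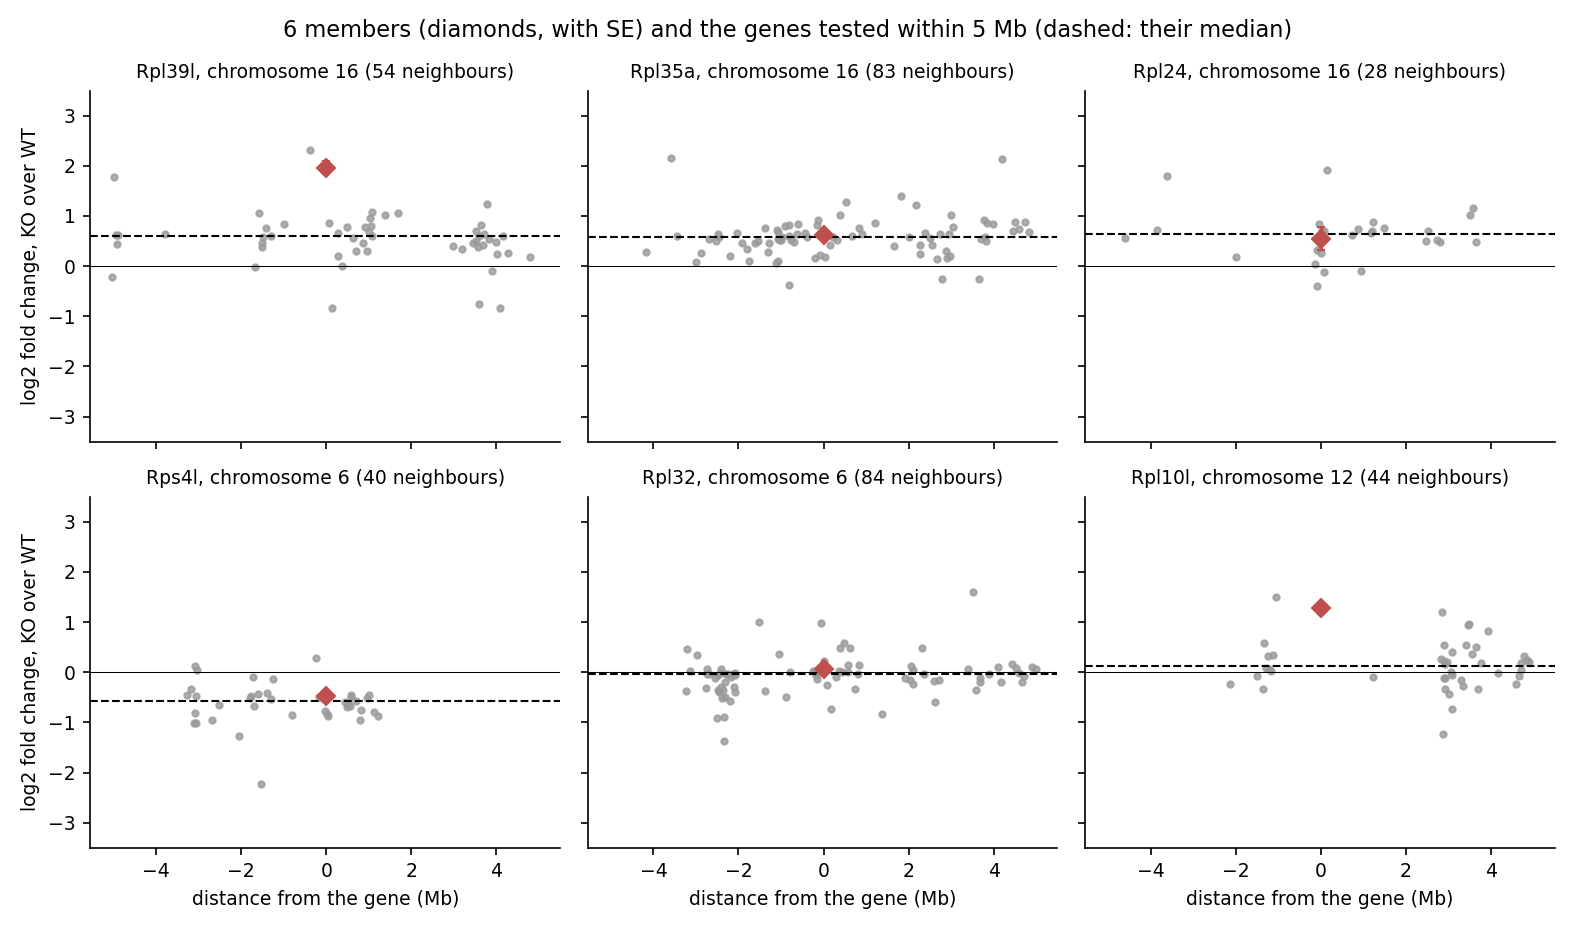
Log2 fold change of KO over WT (y axis) of 6 members (red diamonds, with SE) and of all genes tested within 5 Mb (grey points) by distance in Mb (x axis), with the median of the neighbours as a dashed line. Rpl35a, Rpl24 and Rps4l lie close to their dashed lines (0.58, 0.65 and −0.58), and Rpl39l (1.96) and Rpl10l (1.27) lie far above theirs (0.59 and 0.13).

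Other genes of the translation machinery were read from lists. Of 21 other mRNAs known to carry a TOP motif, mostly elongation and initiation factors, 1 was called, or 4.76%. This was Npm1, a nucleolar chaperone, at 2919, 2601 and 3490 CPM in WT and 3878, 4040 and 3354 CPM in KO (log2 fold change 0.32, SE 0.11, adjusted p = 0.0494). The groups overlapped, and the call was lost without WT replicate 1 or 2 and without KO replicate 1 or 2. The median of the list was 0.09. Hnrnpa1 (0.17), Eef1b2 (0.15) and Eif3e (0.16) came next and did not pass.

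Of 44 ribosome biogenesis genes 7 were called (15.9%), 4 higher and 3 lower, with a median of 0.06. Rrn3, the initiation factor of RNA polymerase I, rose (0.82, SE 0.09, adjusted p = 6.1e-06), as did Lsg1, a GTPase of the last steps of large subunit maturation (0.65, SE 0.10), and both lie on chromosome 16. Polr1a, the largest subunit of RNA polymerase I, fell by 0.71 (SE 0.10, adjusted p = 5.0e-05) and lies on chromosome 6. Heatr3, which brings Rpl5 into the nucleus, fell by 0.45 (SE 0.10) and lies on chromosome 8. Chromosomes 6 and 16 carried 3 of the 7 calls and 4 of the 44 genes.

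Of 77 mitochondrial ribosomal protein genes tested 11 were called (14.3%), 6 higher and 5 lower, with a median of 0.07. Mrpl40 (0.73, SE 0.11) and Mrpl39 (0.62, SE 0.095) rose and lie on chromosome 16. Mrps35 (−0.53) and Mrps25 (−0.48) fell and lie on chromosome 6. These chromosomes held 9 of the 77 genes and 6 of the 11 calls. All of these shares lie below the 24.3% of all genes, and 0 of the calls in the 3 lists reached an absolute log2 fold change of 1.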

How the data were processed

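The deposited values are raw counts per gene of 6 libraries, which the authors made from paired-end reads of 100 bases by trimming (Fastp) and 2-pass alignment to GRCm39 (STAR). Libraries came from a stranded total RNA kit. How strand and reads with several matches were treated, and which annotation was used, is not given in the sources used here. Groups and replicate numbers were taken from the sample titles.

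GENCODE M39 gave symbols and positions for 54749 of the 55416 identifiers. Counts were tested with edgeR 4.0.16 in R 4.3.3 (TMM, filterByExpr with a minimum count of 10, leaving 15746 genes, quasi-likelihood test, genotype as the only term, Benjamini-Hochberg over all genes tested). The threshold was an adjusted p below 0.1, as in the study's methods. SE and 95% intervals came from the same fit, the pairwise medians from log2(CPM + 0.1). The common dispersion of 0.0137 is a coefficient of variation of 11.7%. Members and lists were chosen with earlier results of these data known. Genes named were the called members, the 5 largest and 5 smallest log2 fold changes, the 5 members with the most counts, members on chromosomes 6 and 16, paralogs with their counterparts, members under the filter, Fau, Rps27a, Rpsa and the stalk genes, and up to 4 genes of each list by p. Some genes are not reported here. Rps6, Rps21, Rpl7a, Rpl13a, Rpl21, Rpl29, Rps12 and the neighbours of members were named after their values were seen. Lengths, copied windows and coding sequences came from 1 principal GENCODE transcript per gene, and start regions from RefSeq (GRCm38.p6, 64 of 85 members). Symbols that fit the rule but are annotated as pseudogenes were left out.

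The series describes the replicates as paired. Over 13878 genes, the deviations from the group means of libraries with equal numbers had correlations of 0.22, 0.268 and 0.113, and those with unequal numbers from −0.199 to −0.03. The replicate number was therefore tried as a block. Between libraries of 1 group, chi-square divided by its degrees of freedom ran from 6.94 to 11.8, so none was a copy of another. P-values measure the spread between these cultures of 1 WT line and 1 KO clone. The fits were tested on simulated data. Other alternatives were RLE size factors, library totals alone, TMM without the members, DESeq2 1.42.0, other filters, a threshold of 0.05 and each library left out in turn.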

Additional observations from a re-analysis of the deposited data

How the results depend on the processing

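The calls of Rpl39l, Rpl10l, Rpl35a and Rps4l held under all 13 alternative fits. With the replicate block, which follows the pairing of the replicates, 12 of 84 tested members were called (9 higher, 3 lower). Without it the count was 4 (3 higher, 1 lower). The block gave 12 of 44 ribosome biogenesis genes and 18 of 77 mitochondrial ribosomal protein genes, against 7 and 11 without it. Beside these, 30.3% of all genes were called with the block and 24.3% without it. The block added no call among the other TOP mRNAs, where Npm1 was called in both fits. With library totals alone 3 members were lower. With chromosomes 6 and 16 left out, an alternative chosen after seeing the data, 1 member was called, 1 higher and 0 lower. Leaving out 1 library at a time gave 4 to 8 calls, 3 to 6 higher and 1 to 2 lower, and 0 to 1 among the other TOP mRNAs. Other counts stayed within 1.5 times of their main values. The cause of these shifts was not tested.

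The median log2 fold change of the tested members was 0.0241 with library totals alone and 0.0395 without a filter, and it ran from −0.0185 to 0.096 without single libraries. The share of counts on the members was 7.25% in WT and 7.31% in KO when mitochondrial genes and the 10 most abundant other genes were left out of the total, and the difference ran from −0.166 to 0.265 percentage points without single libraries. The sign of some log2 fold changes near 0, of genes that were not called, turned. With library totals alone it was −0.0162 for Rpl3, −0.0033 for Rpl39, −0.0106 for Rpl7 and −0.0151 for Rps4x. Without single libraries it ran from −0.0216 to 0.121 (Fau), −0.061 to 0.1154 (Rpl22), −0.0485 to 0.0752 (Rpl3), −0.0262 to 0.1606 (Rpl32), −0.1029 to 0.0458 (Rpl36a), −0.1045 to 0.1669 (Rpl39), −0.0534 to 0.0826 (Rpl7), −0.0789 to 0.0315 (Rplp0), −0.4459 to 0.177 (Rps16), −0.0058 to 0.0956 (Rps27), −0.0311 to 0.129 (Rps27a), −0.063 to 0.0881 (Rps4x) and −0.0892 to 0.0482 (Rpsa).

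With 3 libraries per group and no block, the SE of a member's log2 fold change had a median of 0.10. This sets the size of change that could be seen in that fit. The SE could be smaller with the block, as for Rps20 (0.074 against 0.095). The levels of Rpl24, Rps10 and Rpl13a, where annotated genes overlap on the same strand, and of the 48 members with over 50% of copied windows are uncertain, since the counting of such reads is not given in the sources used here.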
